A study of Mus musculus with 6 samples.

Results

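miR-22 is the microRNA (miRNA) that supplied the most reads in cultured mouse bone marrow monocytes, as the 3p arm of the hairpin Mir22. It is 1 of the 1174 mouse hairpins searched, and it was selected on this measured abundance in all 6 libraries, so its rank and level are given here as a description with no test. Its reads were taken from the deposited lists of distinct small RNA sequences and their counts. A read belonged to Mir22 when it had 18 nt or more and matched the GENCODE hairpin exactly, with up to 3 unmatched bases allowed at its 3′ end. A level is given as a percent of the reads assigned to any hairpin, called hairpin reads, or as reads per 1000000 of them (RPM).

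The study asked which miRNAs respond to a very low dose of lipopolysaccharide (LPS), the endotoxin of Gram-negative bacteria. The cells were bone marrow monocytes (BMMs) of wild-type C57BL/6 mice. They were treated for 4 h, either with PBS (3 control samples) or with LPS at 5 pg/ml (3 LPS samples). The labels do not say whether the 3 samples of a group came from separate mice or cultures, or whether mice were pooled, so p-values measure only the spread between these samples, which may be technical. The labels give DMEM as the medium and the methods give RPMI. The cells carry no transgene or deletion according to the labels.

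An miRNA is cut from its hairpin in 2 steps, by Drosha in the nucleus and by Dicer in the cytoplasm, which leaves a short duplex of a 5p and a 3p strand. One strand is kept in an Argonaute protein, and its bases 2 to 8, the seed, pair with target mRNAs. The position of the first base therefore sets the seed, while the 3′ end can be trimmed or extended by added bases. miR-22-3p is known as an abundant miRNA of heart and skeletal muscle, and in blood-forming cells it is known to target Tet2, which encodes an enzyme that oxidizes methylated cytosine in DNA.

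The sequences on which the levels rest are shown 5′ to 3′ with the seed in capitals. The first 2 are the most frequent reads of the arms, and the third is the 5p form listed by RefSeq (GRCm38.p6), which is longer by the last base. The RefSeq form of the 3p arm is identical to the most frequent 3p read.
miR-22-3p, most frequent read, 22 nt: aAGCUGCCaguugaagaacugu
miR-22-5p, most frequent read, 21 nt: aGUUCUUCaguggcaagcuuu
miR-22-5p, RefSeq form, 22 nt: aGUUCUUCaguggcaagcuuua

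Mir22 lies at chr11:75463716-75463810 on the plus strand of GRCm38, a hairpin of 95 nt. It falls in exon 2 of both annotated transcripts of Mir22hg, its non-coding host gene, and in exon 2 of 1 non-coding transcript of Tlcd2, a neighbouring protein-coding gene, and overlaps no coding sequence. The nearest annotated hairpin, Mir3971, is 87619 bp away, so Mir22 has no close neighbour among the hairpins. The deposited files hold no coordinates, and the labels name the build mm9. When the hairpin was folded with RNAfold, 72 of its 95 bases were paired at a free energy of -41.9 kcal/mol, and 19 of the 22 bases of the 3p read paired with the 5p read. The predicted duplex left 2 unpaired bases at the 3′ end of the 3p read and 1 at that of the 21-nt 5p read, and 17 bases of loop lay between the reads. None of the reads assigned to Mir22 matched another hairpin, and miR-22-3p was the only 1 of 1738 RefSeq mature mouse miRNAs with its seed, so that no other family member added to the counts.

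The 6 libraries held 1498829 to 10927338 hairpin reads, 61.6% to 71.0% of all reads. The LPS replicate 2 library stood apart from the other 5. It was the deepest, and sequences read a single time made up 18.6% of its distinct sequences but 67.1% to 74.6% of those in the others. It also held 5.54% of its hairpin reads as miR-146-5p, against 0.282% to 0.451% in the others, and 5.74% as miR-24-3p, against 0.151% to 0.226%. No 2 libraries were copies of each other, but 2 same-numbered pairs were much closer than the rest. The chi-square per degree of freedom grows as 2 libraries differ and also with their depth, so pairs with the deep LPS replicate 2 library are raised by depth too. It was 6.51 for control and LPS replicates 1. It was 4.68 for replicates 3 and 674 for replicates 2. Every pair other than those of replicates 1 and 3 had 64.9 or more, pairs within a group included. All 5 white blood cell miRNAs on the marker list had reads, with a summed level of 155096 to 199373 RPM in 5 libraries and 208392 in LPS replicate 2. Most of this sum was miR-21a-5p, with 122795 to 164339 RPM, and miR-223-3p gave 5607 to 6089. In LPS replicate 2 miR-146-5p gave 55426 RPM of it. Of the markers of other cells, Mir486 of red blood cells reached 782 to 1030 RPM in 5 libraries and 609 in LPS replicate 2. Its reads are shared with the hairpin Mir3107, and Mir451a and Mir144 had at most 6 reads. The single markers of lymphocytes and endothelium stood at 14.9 to 23.2 and 29.0 to 39.7 RPM in 5 libraries, and at 49.2 and 43.9 in LPS replicate 2. Mir9 of neurons had 4 to 10 reads in each library, and Mir133a of muscle had 1 in control replicate 2 and 3 in LPS replicate 2. Mir122 of liver had 20 reads in LPS replicate 2 and at most 1 in the other 5, while Mir1a, Mir206 and Mir124a had none. The 5 epithelial miRNAs summed to 76.6 to 96.4 RPM in 5 libraries and to 168 in LPS replicate 2. There Mir200a, Mir200b and Mir200c stood at 43.7, 57.9 and 29.6 RPM, against at most 12.7, 43.4 and 4.08 in the other 5. Mir141 and Mir429 did not rise there. They stood at 20.6 and 15.9 RPM, against 15.3 to 37.9 and 13.7 to 20.7 in the other 5. Results that rest on LPS replicate 2 are given with and without it.

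miR-22-3p was the most abundant arm in each of the 6 libraries. It stood at 197156, 196227 and 199542 RPM in control replicates 1, 2 and 3. The corresponding levels were 197737, 191707 and 200003 RPM after LPS. This single arm was therefore 19.2% of the hairpin reads in LPS replicate 2, the lowest share, and 19.6% or more in the other 5 libraries, and both groups covered nearly the same range. The reads behind these shares numbered 299771 to 2094850 for each library, and the counting error was at most 0.0327 percentage points, which covers counting only and no error from the cloning of the RNA. The spread between the libraries was larger than that, with a coefficient of variation of 1.52%.

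The other 9 of the 10 most abundant arms varied more, with coefficients of variation from 11.2% for miR-26a-5p to 25.2% for miR-10a-5p. Without LPS replicate 2 the coefficient was 0.807% for miR-22-3p, and it ran from 2.61% for miR-27b-3p to 15.7% for miR-16-5p among the other 9, so that much of their variation rested on that library. miR-27b-3p, the second by mean share, held 17.97% to 19.1% in 5 libraries and 12.7% in LPS replicate 2. miR-21a-5p, an miRNA known to be abundant in myeloid cells, held 12.3% to 16.4%. miR-22-3p exceeded the next arm by 1.03 to 1.11 times in 5 libraries and by 1.49 times in LPS replicate 2, where the next arm was miR-21a-5p in place of miR-27b-3p. The lead over miR-27b-3p was thus narrow outside that library, whereas the fourth arm, miR-16-5p, reached only 2.51% to 4.28%. Reads of different miRNAs are not captured equally well by small RNA cloning, and shares of reads are not numbers of molecules.

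**Figure D1:**
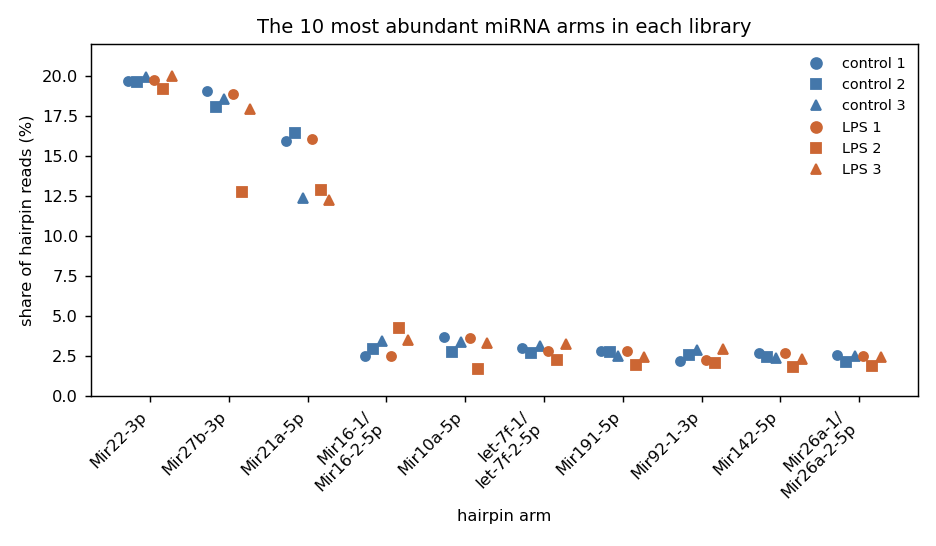
Share of hairpin reads, in percent, of the 10 arms with the highest mean share, with 1 point for each library (blue, control; orange, LPS; the symbol gives the replicate). miR-22-3p is at 19.2% in LPS replicate 2 and at 19.6% or more in the other 5 libraries, and miR-27b-3p and miR-10a-5p fall away in LPS replicate 2.

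LPS left no difference in miR-22 that exceeded the spread between the samples. The summed share of both arms was 19.8% ± 0.172 (SD, n = 3) in control and 19.7% ± 0.428 (SD, n = 3) in LPS samples, a difference of -0.116 percentage points (two-sided exact permutation test, p = 0.9, smallest p possible 0.1). Without LPS replicate 2 the mean of the LPS samples was 19.9% and the difference turned to 0.123 percentage points. The direction of this small difference therefore rested on 1 library.

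After scaling by edgeR's TMM method, which sets the libraries to a common level over most arms, miR-22-3p stood at 206697, 202432 and 189899 counts per 1000000 (CPM) in the control samples. It stood at 203767, 190375 and 190391 in the LPS samples. The values of the groups overlapped, and the log2 fold change was -0.04 (SE 0.11, 95% interval -0.30 to 0.23; edgeR quasi-likelihood test, Benjamini-Hochberg adjusted p = 0.994 over 319 arms). These samples do not exclude a change within this interval, and the smallest change detectable with 3 samples a group was not computed. Leaving out LPS replicate 2 gave -0.04, and leaving out control replicate 1 gave 0.01. The coefficient of variation on this scale was 3.97%, the second lowest of the 319 arms, and without LPS replicate 2 it was 3.98% and ranked 11, so the low rank depended in part on that library.

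No arm passed an adjusted p of 0.05 in either direction, so that the background was 0% of 319 arms (0 by DESeq2 and by limma-voom as well). With p under 0.05 before adjustment, LPS samples were higher in 7 arms (2.19%) and lower in 1 (0.313%), and neither arm of Mir22 was among them. The values of the LPS samples lay wholly above those of the control samples in 5 arms (1.57%) and wholly below in 5 (1.57%), and for both arms of Mir22 they overlapped. Without the filter on low counts 21 of 974 arms were called higher and 0 lower.

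miR-22-5p, the strand that is largely lost, was seen in every library. Control replicates 1, 2 and 3 held 214, 122 and 200 reads of it, and LPS replicates 1, 2 and 3 held 300, 894 and 97. These counts corresponded to 83.7, 71.2 and 84.5 RPM in control and to 94.7, 81.8 and 64.7 in LPS samples. The lowest and the highest value both came from LPS samples, and the 95% Wilson interval of the lowest ran from 53.1 to 78.9 RPM. The arm ranked 138 to 155 among the arms of a library, and the log2 fold change after TMM scaling was -0.0047 (SE 0.22, 95% interval -0.52 to 0.51; edgeR, adjusted p = 0.994).

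For each read of the 5p arm there were 2356, 2757 and 2360 reads of the 3p arm in the control samples. After LPS the ratios were 2089, 2343 and 3090. The log2 ratio averaged 11.28 ± 0.13 (SD, n = 3) in control and 11.27 ± 0.29 (SD, n = 3) in LPS samples (difference -0.01, two-sided exact permutation test, p = 0.8), and the groups overlapped. Among the 20 most abundant arms, all with reads on both arms, this ratio ranked second by its mean over the libraries. Only the miR-26a-5p arm, with a mean log2 ratio of 11.68, had a higher one. The next below were miR-191-5p with 10.35 and miR-10a-5p with 10.29, whereas miR-27b-3p had 9.16 and miR-21a-5p had 6.68. In single libraries the order differed. The ratio was 2272 for miR-10a-5p in LPS replicate 1 and 2766 for miR-146-5p in LPS replicate 2, both above that of miR-22-3p. In LPS replicate 3 miR-26a-5p had 2026, below miR-22-3p. The number of reads of the minor arm, 97 in the shallowest library, sets the precision of the ratio.

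**Figure D2:**
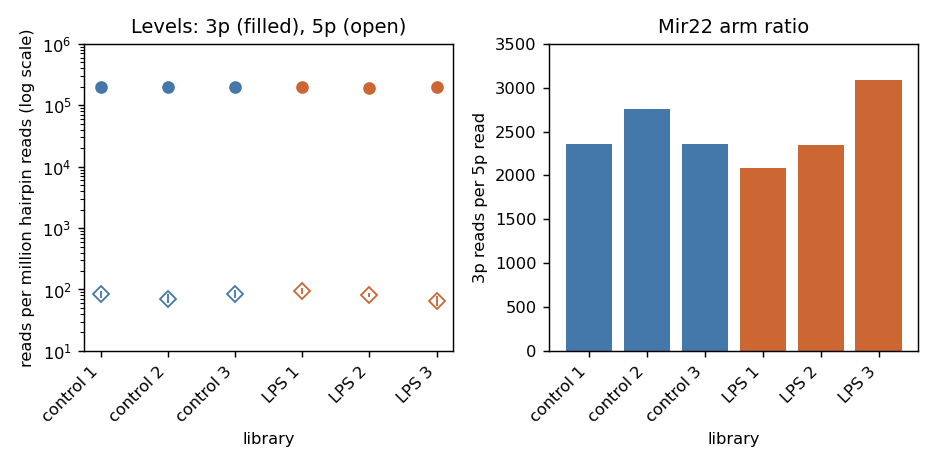
Left, RPM (log scale) of miR-22-3p (filled circles) and miR-22-5p (open diamonds, with 95% Wilson intervals of the counting error), and right, 3p reads for each 5p read, in the 6 libraries (blue, control; orange, LPS). The ratio lies between 2089 and 3090, and both extremes are LPS samples.

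The reads assigned to miR-22-3p were nearly all of 1 sequence. Reads with a substitution before the last 3 positions do not match exactly, so they are outside the percents given here. The 22-nt sequence shown above accounted for 97.1%, 97.1% and 97.2% of the 3p reads in control replicates 1, 2 and 3, and for 97.1%, 97.7% and 97.2% in the LPS replicates. None of the other 19 of the 20 most abundant arms was so uniform. Their most frequent sequence took at most 91.3% to 93.1% of the arm's reads, depending on the library, with medians of 64.3% to 66.1%. The variants of miR-22-3p that follow are shown because they are the most frequent forms after it, with the seed in capitals.
1 base shorter at the 3′ end, 21 nt: aAGCUGCCaguugaagaacug
1 added A at the 3′ end, 23 nt: aAGCUGCCaguugaagaacugua
1 base later at the 5′ end, 21 nt: aGCUGCCAguugaagaacugu
2 bases shorter at the 3′ end, 20 nt: aAGCUGCCaguugaagaacu

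The 5′ end was held at 1 position. Reads that began at base 57 of the hairpin made up 99.6% to 99.7% of the 3p reads in all libraries. Those that began 1 base later made up 0.306% to 0.339%, and those that began 1 base earlier 0.00684% to 0.0127%. The later start moves the seed to GCUGCCA, which RefSeq lists for mmu-miR-3966, and the earlier start moves it to AAGCUGC, which no RefSeq mature mouse miRNA has. No read was assigned to the hairpin Mir3966 itself. At the share of miR-22-3p, the form with the shifted seed still had 870 to 6847 reads of its most frequent sequence in a library, more than the 5p arm had in the same library. The 5′ start share was 99.7% ± 0.00119 (SD, n = 3) in control and 99.7% ± 0.0143 (SD, n = 3) in LPS samples (difference -0.004 percentage points, two-sided exact permutation test, adjusted p = 0.9 over 5 measures).

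**Figure D3:**
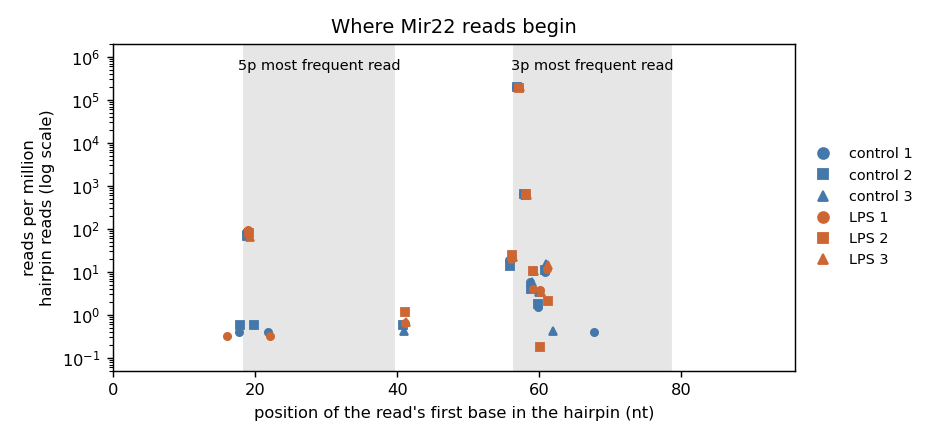
Level in RPM (log scale) by the position of the read's first base in the 95-nt hairpin, with 1 point for each library that had reads there (blue, control; orange, LPS) and the spans of the most frequent reads shaded. Reads begin at base 19 for the 5p arm and base 57 for the 3p arm, starts 1 base later than 57 are the next most frequent, and a few reads begin at base 41.

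The templated part of the 3p reads, the part that matches the hairpin, ended at base 78 in 98.0%, 98.1% and 98.2% of the reads in the control samples and in 98.1%, 98.6% and 98.1% in the LPS samples. An end 1 base short was found in 1.40% to 1.52% in 5 libraries and in 1.00% in LPS replicate 2. This share includes full 22-nt reads whose last base differs from the hairpin. The end 1 base further was found in 0.0991% to 0.121%. The full-length end was thus the rule in every library, and its share was highest in LPS replicate 2. The difference between the groups was 0.165 percentage points (two-sided exact permutation test, adjusted p = 0.9), and it was -0.00994 without LPS replicate 2.

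Reads with 1 to 3 unmatched 3′ bases, here called tailed, were rare. They made up 1.07%, 1.01% and 0.987% of the 3p reads in control and 0.984%, 0.765% and 1.01% in LPS samples. LPS replicate 2 had the lowest share, and the other libraries lay close together. The mean was 1.02% ± 0.0438 (SD, n = 3) in control and 0.921% ± 0.135 (SD, n = 3) in LPS samples (difference -0.100 percentage points, two-sided exact permutation test, adjusted p = 0.9). Without LPS replicate 2 the mean of the LPS samples was 0.998%.

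Most tails were of either of 2 kinds. Bases added beyond the usual 22-nt end were found in 0.626% to 0.671% of the 3p reads, and in 0.608% to 0.655% the added bases were all A. An added U could not be counted in the same way, since base 79 of the hairpin is itself U and a read that ends there, as 0.0991% to 0.121% of the 3p reads did, is scored as matched. The adenylated fraction was lowest in LPS replicate 2 by a small margin. Unmatched bases within the usual length, at the last 1 to 3 positions, were found in 0.304% to 0.406% in 5 libraries and in 0.137% in LPS replicate 2. The gap between LPS replicate 2 and the others in the tailed share thus lay mostly in the second kind. Tails on shortened reads of other lengths made up the remaining 0.00277% to 0.0109%.

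The 20 most abundant arms were compared within each library, which holds depth and handling in common. The sign-flip p measures whether a difference from the median arm kept its sign over the libraries. It does not measure whether miR-22-3p is unusual among the arms, for which the ranks are given. The tailed share of miR-22-3p was the lowest of the 20 in each of the 6 libraries, where the median of the other 19 was 6.42% to 7.51% and the lowest other arm had 1.00% to 1.51%. The margin was narrow in control replicate 3, 0.987% against 1.00%, and in LPS replicate 3, 1.01% against 1.08%. There, 0.0991% and 0.102% of the 3p reads ended at base 79, where an added U is scored as matched. The lowest rank in these libraries therefore depends on that scoring. The difference from the median was -5.92 percentage points (mean of 6 libraries, SD 0.386, lower in 6 of 6; two-sided exact sign-flip test, adjusted p = 0.0313 over 3 measures, the smallest p that 6 libraries allow). Same-numbered control and LPS libraries of replicates 1 and 3 were close by chi-square, and those of replicates 2 were not. With the 3 replicate numbers flipped in place of the 6 libraries, the exact sign-flip test gave p = 0.25 for each of the 3 measures. This is the smallest p possible, so these calls rest on counting the libraries as independent. Against the other 9 of the 10 most abundant arms it was -4.18. miR-92a-3p, from the hairpin Mir92-1, was at the other extreme with 71.4% to 80.0%.

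The 5′ start share of miR-22-3p was above the median of the other arms by 0.224 percentage points (SD 0.0263, higher in 6 of 6; exact sign-flip test, adjusted p = 0.0313), and ranked eighth or ninth of 20, so several arms began still more uniformly. The share with the full-length end was the highest of the 20 arms in each library, where the medians of the others were 79.2% to 81.1%. The mean read length was 21.99 nt in all 6 libraries and ranked 14 to 16 of 20 from the longest. Its difference from the median of the other arms was -0.297 nt (SD 0.0111, lower in 6 of 6, exact sign-flip test, adjusted p = 0.0313). The difference was -0.0371 nt with exact matches only and -0.082 nt against the other 9 of the 10 most abundant arms. miR-146-5p and miR-24-3p, whose shares were far higher in LPS replicate 2, are among these 20 arms, and neither is among the 10 most abundant. The mean read length did not differ between the groups beyond the spread (difference 0.00103 nt, exact permutation test, adjusted p = 0.9).

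**Figure D4:**
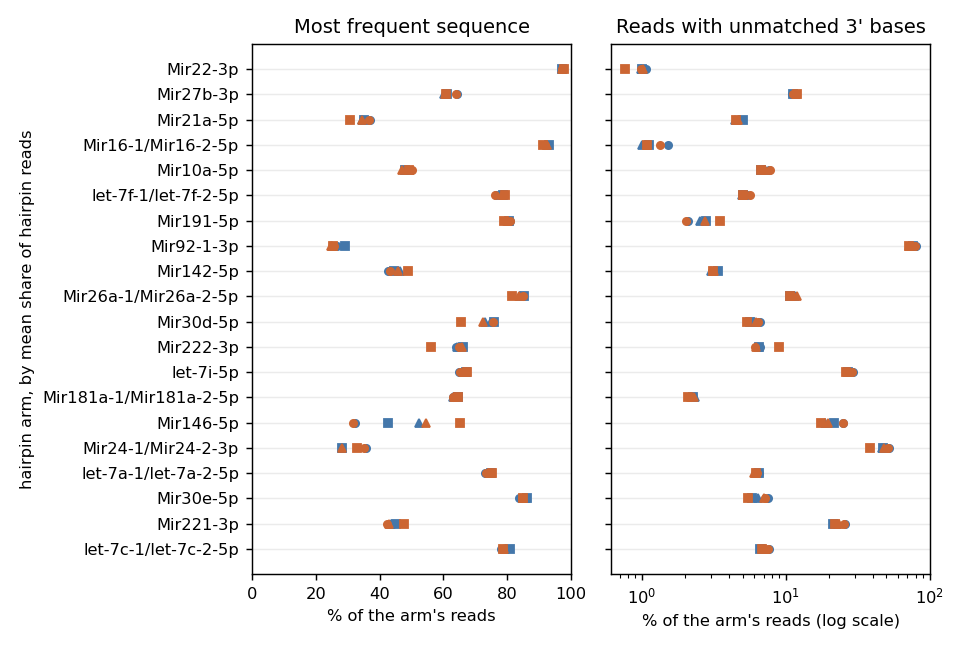
For the 20 arms with the highest mean share of hairpin reads, the percent of an arm's reads that are its most frequent sequence (left) and that carry 1 to 3 unmatched 3′ bases (right, log scale), with 1 point for each library (blue, control; orange, LPS). miR-22-3p, at the top, has the highest value on the left, 97.1% to 97.7%, and the lowest on the right, 0.765% to 1.07%.

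miR-22-5p was less uniform at its 3′ end than the 3p arm. It began at base 19 in 98.4% or more of its reads. Its templated part ended at base 39 in 46.7% to 56.7%, at base 40 in 28.0% to 39.5% and at base 38 in 9.28% to 19.2%. The 21-nt read was the most frequent in each library, with 45.1% to 55.7% of the arm, and the RefSeq form, 1 base longer, took 23.8% to 35.3%. Tailed reads made up 6.07%, 4.10% and 2.50% of the 5p arm in control and 5.00%, 5.15% and 7.22% in LPS samples. The groups overlapped, and the difference of 1.56 percentage points was within the spread (two-sided exact permutation test, adjusted p = 0.9), with as few as 97 reads behind a value.

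A few reads came from the loop side of the hairpin. They were 38 nt long, began at base 41, directly after the last base of the RefSeq 5p form, and ended at base 78, the usual end of the 3p arm. Control replicates 1, 2 and 3 held 0, 1 and 1 of them and LPS replicates 1, 2 and 3 held 2, 13 and 1. With 1 read in each of 3 libraries, their level was known only roughly. The longest deposited read has 40 nt, so that longer fragments of the hairpin would not be seen.

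Reads that differed from the 22-nt sequence at 1 base were counted apart from the levels above, except that most reads with another base at one of the last 3 positions are also tailed reads. Substitutions are written with the usual base first, the position from 1 at the 5′ end of the read, and then the base read. In 5 libraries there were 1143 to 1272 such reads for each 100000 reads of the usual sequence, and 751 in LPS replicate 2. Of the parts of the read compared, the gap was widest at both ends. The gap also differed by the base read. Substitutions to G, over all positions, numbered 552 to 660 of 100000 in 5 libraries and 227 in LPS replicate 2. Those to other bases numbered 592 to 612 and 524. U22G was found in 153 to 253 of 100000 in 5 libraries and in 6.01 in LPS replicate 2, and A1G in 190 to 204 and in 79.2. In contrast, U22A was found in 53.0 to 69.7 and in 59.8. At positions 9 to 21 the libraries were close, with 306 to 317 in the 5 and 300 in LPS replicate 2, and G13A was found in 44.4 to 49.3 in all 6. In the seed, positions 2 to 8, the rate was 367 to 388 in 5 libraries and 274 in LPS replicate 2. Whether these substitutions arose in the cells, in the cloning or in base calling was not tested. LPS replicate 2 also had far fewer sequences read a single time, and whether its reads were filtered in another way before deposit was not tested.

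**Figure D5:**
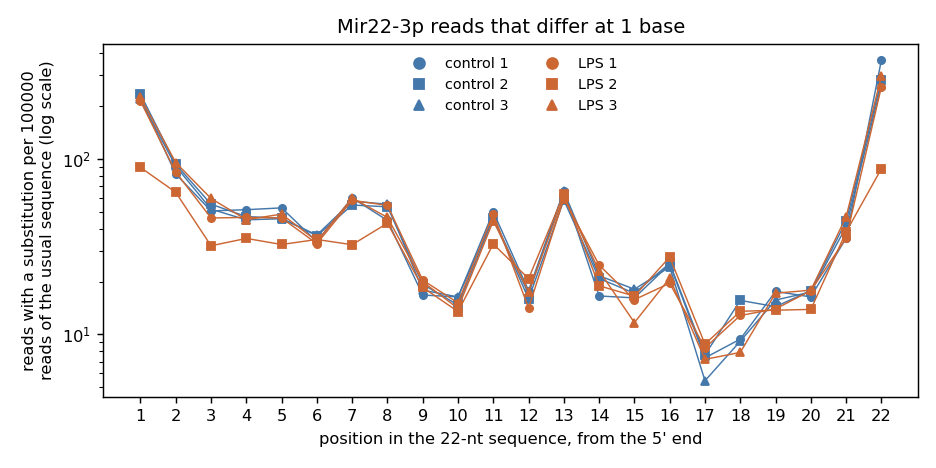
Reads with 1 substitution for each 100000 reads of the usual 22-nt sequence (log scale), summed over the 3 possible bases at each position from the 5′ end, with 1 line for each library (blue, control; orange, LPS). LPS replicate 2 (orange squares) lies below the others at positions 1 and 22, 89.2 and 87.7 against 213 to 233 and 257 to 365, and close to them over positions 9 to 21, 300 against 306 to 317.

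The arms whose levels correlated best with that of miR-22-3p over the 6 libraries were found by Pearson correlation of TMM-scaled log2 CPM among 139 arms with a mean of at least 100 CPM. They were miR-99b-5p (r = 0.985), miR-29a-3p (r = 0.975), miR-192-5p (r = 0.970), miR-186-5p (r = 0.968) and miR-21a-5p (r = 0.968). A high r does not mean a movement of the same size. The SD of log2 CPM was 0.498, 0.0916, 0.255, 0.0650 and 0.262 for these arms in the same order, while the CPM of miR-22-3p had a coefficient of variation of only 3.97%. Without LPS replicate 2 r was 0.961 to 0.993. These correlations share libraries and scaling factors, and they depend on the scale. With log2 shares of hairpin reads in place of TMM-scaled values, r was -0.0893 for miR-99b-5p, 0.72 for miR-29a-3p, 0.24 for miR-192-5p, 0.784 for miR-186-5p and -0.128 for miR-21a-5p.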

How the data were processed

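Per the study's methods, small RNA was cloned with the Illumina TruSeq Small kit, sequenced on a HiSeq 1000 and trimmed of adaptors with custom scripts and Btrim64. The authors deposited raw counts of each distinct read, 11 to 40 nt long, without miRNA names. The methods name mirAnalyzer for mapping and the labels name mm9, but the lists hold neither miRNA assignments nor coordinates, so hairpins were matched anew.

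Reads of at least 18 nt were matched to the 1174 GENCODE M21 hairpins, and arms sharing over 50% of their reads were merged. Counts of 319 arms kept by filterByExpr were tested with edgeR 4.0.16 (TMM, quasi-likelihood, Benjamini-Hochberg). Standard errors were taken as |log2 fold change|/√F. Shares were compared by exact permutation over samples (scipy 1.17.1), and within-library differences by exact sign flips. Intervals of shares are 95% Wilson intervals. Mapping and tests were tested on simulated data. Hairpins were folded with RNAfold 2.7.2.

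Same-numbered control and LPS samples deviated together, with correlations of 0.594, 0.259 and 0.277 for replicates 1, 2 and 3. Other pairs had -0.386 to 0.153. By chi-square only the pairs of replicates 1 and 3 were close. The numbers were treated as pairs in an alternative with a replicate block. DESeq2 1.42.0, limma-voom with limma 3.58.1, other scalings, filters and read lengths, other matching and each sample left out were tried too. The text names the Mir22 arms, the 10 most abundant arms, the 5 arms best correlated with miR-22-3p in level, its most frequent sequences and the cell type markers. miR-146-5p and miR-24-3p as abundant arms, the loop reads and the named substitutions were picked after their values were seen. Members and lists were chosen with earlier results of these data known.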

Additional observations from a re-analysis of the deposited data

Results flagged for a closer look

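One signal outside the comparisons was higher in each LPS sample than in each control sample. It is the 38-nt read that spans the loop of Mir22 from base 41 to base 78. It stood at 0, 0.583 and 0.423 reads per 1000000 hairpin reads (RPM) in control replicates 1, 2 and 3 and at 0.631, 1.19 and 0.667 in LPS replicates 1, 2 and 3, a difference of 0.494 between the group means. This read was picked because the groups did not overlap, so the difference is a description with no test, and 2 reads in LPS replicate 1 against 1 in control replicate 2 separate the groups. The reads themselves numbered 2 over the control samples and 16 over the LPS samples, 13 of them in LPS replicate 2. Pooled over the samples of a group, the level was 0.301 RPM in control (exact Poisson 95% interval 0.0365 to 1.09) and 1.03 in LPS samples (0.586 to 1.67), and these intervals, which cover counting error only, overlap. Without LPS replicate 2 the LPS level was 0.643 RPM (3 reads, interval 0.133 to 1.88) and the difference between the group means was 0.314.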

How the results depend on the processing

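No call between control and LPS samples was made for miR-22, and none appeared under any alternative. Differences near 0 changed sign. With exact matches only, the share of both arms differed by 0.0182 percentage points and the log2 arm ratio by 0.0187. The log2 fold change of miR-22-5p was 0.0152 by DESeq2, 0.0132 with library totals and 0.0129 without the filter on low counts, where 974 arms were tested and 21 called higher. The cause of these changes was not tested. With the replicate block the log2 fold changes were -0.04 (3p) and -0.02 (5p), and the block changed no call between the groups. With the 3 numbers of the block flipped in place of 6 libraries, a choice made after seeing the data, the differences from the other abundant arms stayed 0.224 (5′ start share), -5.92 (tailed share) and -0.297 nt (length) and their exact sign-flip p became 0.25. With upper-quartile scaling miR-22-3p gave -0.11, where the median of all arms was -0.08.

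With 1 sample left out at a time, the log2 fold change ranged from -0.0681 to 0.0131 for the 3p and from -0.17 to 0.16 for the 5p arm. The difference in share ranged from -0.291 to 0.123 percentage points, in log2 arm ratio from -0.17 to 0.12, in 5′ start share from -0.00994 to 0.00393, in full-length end share from -0.00994 to 0.256, in 3p tailed share from -0.146 to -0.0225, in 5p tailed share from 0.701 to 2.49 and in mean length from -0.000345 to 0.00198 nt. Against the other abundant arms, an exact sign-flip test over 5 libraries cannot give less than p = 0.0625, and the differences ranged from 0.217 to 0.230 (5′ start share), from -6.02 to -5.81 (tailed share) and from -0.301 to -0.295 nt (length). With added bases only, an alternative chosen after seeing the data, the tailed share differed by -0.0102 percentage points between the groups. The 97 reads of miR-22-5p in the shallowest library limit every value of that arm.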
